A study of Mus musculus with 24 samples.

Results

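The comparison described here asks in which genes an antibody against Dll4 acted differently on 2 populations of Kit+ endothelial and blood-forming cells of the mouse embryo. The study it belongs to concerns Dll4 and the blood-forming clusters of the embryonic aorta. For each gene, the change with anti-Dll4 in Kit+ CD45- cells was subtracted from the change with anti-Dll4 in Kit+ CD45+ cells. The groups are set by the labels, and all genes that could be tested entered. It rests on 16 of the 24 RNA-seq libraries of the series, 4 in each of 4 groups.

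The groups were Kit+ CD45+ cells under anti-Dll4, Kit+ CD45+ cells under anti-human IgG, Kit+ CD45- cells under anti-Dll4 and Kit+ CD45- cells under anti-human IgG. They are called CD45+ and CD45- cells from here on. All were CD31+ and came from C57BL/6J embryos at E10.5. Each embryo had been injected into the heart with its antibody. It was then held for 5 hours at 37 °C and 5% CO2 in a myeloid long-term culture medium. That medium contained the same antibody at 5 µg/ml, together with 10 ng/ml interleukin-3 and 10 µM hydrocortisone, which the IgG embryos received too. Digestion was with 0.1% collagenase, and amplified cDNA of the sorted cells was sequenced. Neither the region of the embryo nor the number of embryos behind a library is given in the sources used here, so p-values measure the spread between libraries. A further population, Kit- CD41+ CD45- cells, with 4 libraries for each antibody, served to estimate the spread and as a scale for platelet transcripts.

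Dll4 is a ligand presented by arterial endothelial cells. When it binds a Notch receptor on a neighbouring cell, the receptor is cleaved and its intracellular part joins the DNA-binding protein Rbpj to switch on target genes such as those of the Hes and Hey families. In the embryonic aorta some endothelial cells become hemogenic, take up expression of Runx1 and Kit and bud into clusters, where they acquire CD45 (Ptprc), the pan-leukocyte surface protein. Megakaryocytes, the cells that shed platelets, express many of the same early blood genes together with a dedicated set of adhesion receptors and granule proteins.

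Library totals in the 16 libraries ran from 8718351 to 11115548 counts. Levels are given as CPM, counts scaled to a common library size. Ptprc transcripts followed the gate, with 59.2, 108, 66.0 and 83.3 CPM in CD45+ cells under anti-Dll4 and 55.2, 104, 53.0 and 117 CPM under IgG. In CD45- cells Ptprc lay between 0 and 0.956 CPM under anti-Dll4 and between 0 and 1.51 CPM under IgG. The populations also differed in red cell transcripts: globin genes took at most 0.0226% of counts in CD45+ libraries, against 34.0%, 36.2%, 22.1% and 49.3% in CD45- libraries under anti-Dll4 and 16.9%, 33.7%, 29.8% and 27.4% under IgG. A pair of IgG libraries stood apart. CD45- IgG replicate 1 had the lowest globin share and the highest summed pan-endothelial level of its population, and CD45+ IgG replicate 1 had the lowest macrophage sum of its population, 615 CPM against 3167 to 4997 CPM in the other IgG libraries. The anti-Dll4 libraries of replicate 1 held transcripts of the Y-linked gene Ddx3y and hardly any of Xist, with 1244 and 1 counts in the CD45+ library and 523 and 5 counts in the CD45- library. The other libraries held at most 15 Ddx3y counts.

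The response to anti-Dll4 differed between the Kit+ populations for 2 platelet receptor genes, F2rl2 and Gp6. Both were higher under anti-Dll4 than under IgG in CD45+ cells and lower in CD45- cells. Of 15618 tested genes these 2 were past an adjusted p of 0.05 in edgeR's quasi-likelihood test with Benjamini-Hochberg adjustment, both with the higher effect in CD45+ cells, 0.0128% of the genes tested. In the opposite direction 0 genes passed, or 0%. At an unadjusted p below 0.05 there were 660 genes with a higher effect in CD45+ cells, 4.23%, and 264 with a lower one, 1.69%. DESeq2 called 32 genes, 29 with a higher and 3 with a lower effect, and limma-voom called 0. These fits treated as independent the libraries of a set of sorts, which share antibody and replicate number. With the sets as a block F2rl2 passed (adjusted p = 0.0225 by edgeR) and Gp6 did not.

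F2rl2 (ENSMUSG00000021675.4, mm10 chr13:95696853-95702739, plus strand) encodes PAR3, which mouse platelets use as a cofactor in thrombin sensing. In CD45+ cells it had 17.1, 31.8, 35.3 and 51.7 CPM under anti-Dll4, against 1.397, 7.12, 8.22 and 7.35 CPM under IgG. The CD45- cells had 171, 151, 120 and 160 CPM under anti-Dll4, against 137, 345, 309 and 367 CPM under IgG. All 4 anti-Dll4 libraries of CD45+ cells were above all 4 IgG libraries. In CD45- cells the groups overlapped through IgG replicate 1 alone. The log2 fold change was 2.51 (SE 0.37, adjusted p = 0.0093) in CD45+ cells and -0.95 (SE 0.33, adjusted p = 0.337) in CD45- cells, by edgeR. Their difference was 3.45 (SE 0.50, 95% interval 2.43 to 4.48, adjusted p = 0.00636). F2rl2 was the only gene past the threshold in CD45+ cells by themselves, 0.0064% of the genes tested. No gene passed in CD45- cells, 0%, where 1733 genes had an unadjusted p below 0.05.

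Gp6 (ENSMUSG00000078810.4, mm10 chr7:4363965-4397744, minus strand) encodes glycoprotein VI, a collagen receptor of platelets, and its reads were few. In CD45+ cells it had 3, 37, 14 and 23 counts under anti-Dll4, against 0, 0, 4 and 0 counts under IgG. That corresponds to 0.279, 2.87, 1.204 and 1.61 CPM under anti-Dll4 and to 0, 0, 0.305 and 0 CPM under IgG, so the groups overlapped by 1 library on each side. Its level in CD45- cells was 2.87, 4.66, 1.70 and 2.41 CPM under anti-Dll4, against 2.77, 26.4, 13.5 and 25.3 CPM under IgG. IgG replicate 1 again lay among the anti-Dll4 libraries. The fitted log2 difference of the effects was 6.65 (SE 1.08, 95% interval 4.42 to 8.88, adjusted p = 0.0209 by edgeR). Its size rests on the 4 counts of 1 IgG library. Neither effect passed by itself, with log2 4.12 (adjusted p = 0.676) in CD45+ cells and log2 -2.53 (adjusted p = 0.12) in CD45- cells.

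Both calls depended on the fit. The direction held for both genes in all 33 alternatives, and F2rl2 stayed past the threshold in 27 of them and Gp6 in 20. F2rl2 was lost when the spread was estimated from the 16 Kit+ libraries alone (adjusted p = 0.203), without a filter on low counts (0.0551), with limma-voom (0.0545), and without replicate 2, 3 or 4 of every group (0.198, 0.615 and 0.564). Its own effect in CD45+ cells did not pass without anti-Dll4 replicate 4 of that population, which left 0 genes. Gp6 was lost in those fits of the difference too, with the sets of sorts as a block (0.129), and without any 1 of 6 libraries. These were CD45+ anti-Dll4 replicate 2 (0.156) or 4 (0.0538), CD45+ IgG replicate 1 (0.081) or 4 (0.0918), CD45- anti-Dll4 replicate 3 (0.0795) and CD45- IgG replicate 4 (0.0514).

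**Figure D1:**
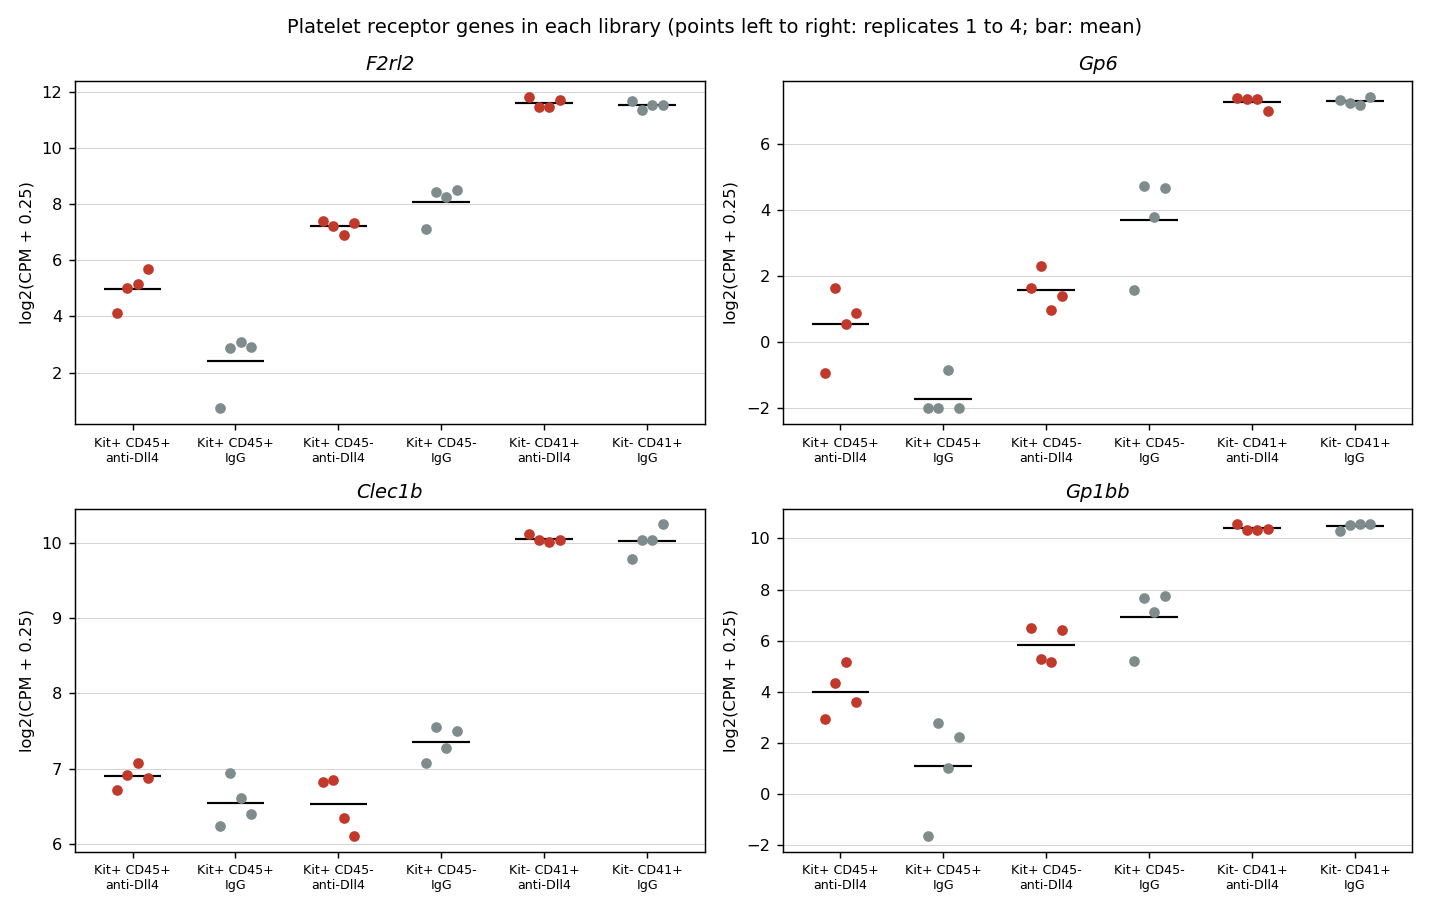
Levels of 4 platelet receptor genes as log2(CPM + 0.25) in each library of the 3 sorted populations, anti-Dll4 in red and IgG in grey, with the group mean as a bar. F2rl2 in Kit+ CD45+ cells lay between 17.1 and 51.7 CPM under anti-Dll4 and between 1.397 and 8.22 CPM under IgG, and the first IgG library of Kit+ CD45- cells lay below the other IgG libraries.

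The promoter windows of F2rl2 and Gp6 are printed because these were the genes called. Those of Gp1ba and Gp1bb, subunits of the von Willebrand factor receptor, and of Clec1b, a receptor that starts platelet activation, are added as platelet genes with a low p whose difference was not called. Each window spans 250 bases before to 50 bases after the start of the gene, from RefSeq on build GRCm38.p6, written 5′ to 3′ on the gene's strand. Capitals mark matches on either strand to AGATAA or TGATAA, letters bound by GATA factors, which direct megakaryocyte and red cell genes.
F2rl2, chr13:95696670-95696969, plus strand: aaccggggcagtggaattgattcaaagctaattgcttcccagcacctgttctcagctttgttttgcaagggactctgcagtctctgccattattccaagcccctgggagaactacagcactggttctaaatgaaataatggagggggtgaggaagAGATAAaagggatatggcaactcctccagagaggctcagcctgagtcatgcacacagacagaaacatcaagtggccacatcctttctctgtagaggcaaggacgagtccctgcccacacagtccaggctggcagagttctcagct
Gp6, chr7:4397695-4397994, minus strand: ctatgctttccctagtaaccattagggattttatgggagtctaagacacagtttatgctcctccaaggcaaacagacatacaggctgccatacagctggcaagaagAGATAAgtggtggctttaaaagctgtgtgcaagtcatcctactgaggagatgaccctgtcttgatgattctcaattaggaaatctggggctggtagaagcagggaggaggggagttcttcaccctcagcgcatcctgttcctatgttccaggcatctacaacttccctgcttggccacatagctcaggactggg
Gp1ba, chr11:70638872-70639171, plus strand: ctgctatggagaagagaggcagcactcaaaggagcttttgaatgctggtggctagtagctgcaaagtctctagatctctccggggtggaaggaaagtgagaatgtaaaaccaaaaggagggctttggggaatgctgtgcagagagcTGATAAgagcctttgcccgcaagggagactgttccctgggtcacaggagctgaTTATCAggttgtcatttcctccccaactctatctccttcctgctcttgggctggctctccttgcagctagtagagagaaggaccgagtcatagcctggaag
Gp1bb, chr16:18622354-18622653, minus strand: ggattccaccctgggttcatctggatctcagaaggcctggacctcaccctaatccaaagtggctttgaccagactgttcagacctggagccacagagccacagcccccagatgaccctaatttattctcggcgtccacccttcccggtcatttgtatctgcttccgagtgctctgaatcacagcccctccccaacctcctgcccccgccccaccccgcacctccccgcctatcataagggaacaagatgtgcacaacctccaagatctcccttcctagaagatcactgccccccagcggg
Clec1b, chr6:129397047-129397346, plus strand: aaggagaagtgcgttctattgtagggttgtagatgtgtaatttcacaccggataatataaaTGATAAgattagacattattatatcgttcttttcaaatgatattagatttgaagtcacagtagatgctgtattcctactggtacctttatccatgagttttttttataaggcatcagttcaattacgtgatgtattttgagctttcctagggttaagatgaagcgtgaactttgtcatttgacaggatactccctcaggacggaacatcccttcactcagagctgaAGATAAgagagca
F2rl2 held 1 match, starting 95 bases before its RefSeq start, and Gp6 held 1, starting 144 bases before its own. Gp1ba and Clec1b held 2 each, and Gp1bb held 0. The RefSeq start of F2rl2 lies downstream of the start in the gene position printed above, so its match is nearer to the latter. A match to AGATAA or TGATAA was present in 18.6% of all 32851 promoter windows. Of a list of 30 megakaryocyte and platelet genes, 24 had a window, and 10 of these genes held a match, 41.7%. The others of the 30 were not matched to a window. A listed gene counted if any of its windows matched, so its share is per gene and not directly comparable with the share of windows. None of those 24 genes had a window with GTGGGAA, the letters bound by Rbpj, on either strand, against 6.38% of all windows. At a share that low few matches are to be expected among 24 genes, so no contrast is drawn from this. AGGAAGT, searched as letters bound by ETS factors, was present for 4 of the 24 genes, 16.7%, against 9.35% of all windows. A match is only a string of letters in this window.

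The difference was shared in sign by the other genes of a list of 30 megakaryocyte and platelet genes. That list was written with earlier results of these data known, and it holds F2rl2 and Gp6 themselves. Its members were measured in the same libraries, so the counts describe the list and are not separate tests. All 30 were tested, and 30 had a positive difference of effects, against 53.5% of all genes. The list's 2 genes past the threshold were F2rl2 and Gp6, and 22 members had an unadjusted p below 0.05, 73.3% against 4.23% of all genes. The median difference was 1.51 on the log2 scale, against 0.04 over all genes tested. It combined a median effect of 0.82 in CD45+ cells with one of -0.90 in CD45- cells. In 24 of 30 members the estimate was above 0 in CD45+ cells and below 0 in CD45- cells, a pattern that 23.3% of all genes had. Few members separated the libraries fully. In CD45+ cells all 4 anti-Dll4 libraries were above all 4 IgG libraries for 3 members, against 0.96% of all genes. In CD45- cells all 4 anti-Dll4 libraries were below all 4 IgG libraries for 2 members, against 2.23% of all genes. In bulk libraries fewer cells of a type and less RNA per cell cannot be told apart.

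**Figure D2:**
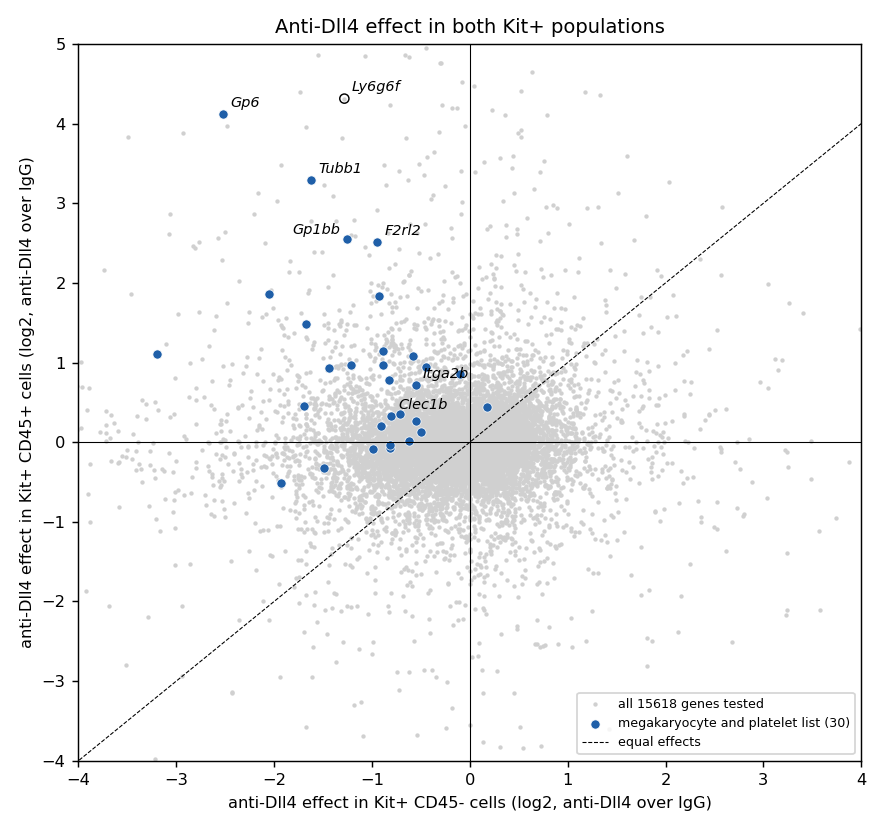
Log2 effect of anti-Dll4 in Kit+ CD45+ cells (vertical) against that in Kit+ CD45- cells (horizontal) for each gene tested, with the 30 megakaryocyte and platelet genes in blue, Ly6g6f ringed and the line of equal effects dashed; 115 of 15618 genes fall outside the axes. All 30 platelet genes lie above the dashed line, 24 of them with the effect above 0 in Kit+ CD45+ cells and below 0 in Kit+ CD45- cells.

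Among the adhesion receptors, the subunits of the von Willebrand factor receptor complex gave large estimates. Gp1bb, its beta chain, had 7.27, 20.0, 35.4 and 11.7 CPM under anti-Dll4 and 0.0665, 6.59, 1.75 and 4.48 CPM under IgG in CD45+ cells. CD45- libraries had 89.9, 38.3, 35.1 and 85.3 CPM under anti-Dll4 and 36.2, 203, 139 and 214 CPM under IgG. The groups were apart in CD45+ cells, and IgG replicate 1 alone overlapped in CD45- cells. The difference of 3.81 (SE 0.82, adjusted p = 0.18 by edgeR) did not pass. The differences of the other subunits were 3.91 for Gp1ba, 3.15 for Gp5 and 2.18 for Gp9, with unadjusted p of 0.000207, 0.00163 and 0.00176. Itgb3 encodes the beta subunit of the fibrinogen receptor. It had 14.5, 18.1, 20.8 and 18.7 CPM under anti-Dll4 against 10.4, 5.30, 10.51 and 7.89 CPM under IgG in CD45+ cells, where the groups did not overlap. For CD45- cells the values were 25.1, 26.2, 41.4 and 23.6 CPM under anti-Dll4 and 11.8, 43.2, 55.7 and 65.2 CPM under IgG. Its difference was 1.66 (SE 0.44, adjusted p = 0.361). Its partner Itga2b, which is CD41 itself, differed by 1.27 (adjusted p = 0.831).

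Receptors that start platelet activation also had positive differences. Clec1b encodes CLEC-2, the podoplanin receptor of platelets. It had 105, 120, 135 and 118 CPM under anti-Dll4 and 75.2, 123, 97.5 and 84.2 CPM under IgG in CD45+ cells. Among CD45- cells it stood at 113, 115, 80.9 and 68.7 CPM under anti-Dll4, all below the 135, 188, 154 and 181 CPM under IgG. The difference was 1.13 (SE 0.23, adjusted p = 0.131 by edgeR), from effects of 0.33 in CD45+ cells and -0.80 in CD45- cells. The other thrombin receptor genes F2r and F2rl3 had differences of 0.64 (unadjusted p = 0.048) and 0.91 (0.0224), with effects of 0.02 and -0.08 in CD45+ cells. P2ry1, a receptor for ADP, had 1.397 (0.00217) and P2rx1, a channel opened by ATP, 1.11 (0.0315). None of these passed after adjustment by edgeR.

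Tubb1, the tubulin of the platelet rim, had 0.373, 4.11, 7.91 and 1.47 CPM under anti-Dll4 and 0, 1.36, 0 and 0 CPM under IgG in CD45+ cells. In CD45- cells it had 12.6, 43.7, 11.99 and 9.84 CPM under anti-Dll4 and 25.1, 67.1, 39.6 and 112 CPM under IgG. In CD45+ cells 3 of the 4 IgG libraries held 0 counts, and the size of the fitted difference of 4.91 (SE 1.11, adjusted p = 0.208 by edgeR) rests on that. Treml1, a receptor of the platelet granules, differed by 2.76 and Rab27b, which helps move those granules, by 2.03. The granule chemokines Pf4 and Ppbp differed by 2.37 and 4.30. Pf4 varied widely inside its groups, between 164 and 264 CPM under anti-Dll4 and between 4.46 and 172 CPM under IgG in CD45+ cells. The members with the largest p were Nbeal2, needed to form alpha granules, with a difference of 0.27 (unadjusted p = 0.771 by edgeR), and Slfn14, with 0.95 (0.517).

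Kit- CD41+ CD45- cells carried far more of these transcripts, 2670 to 3675 CPM of F2rl2 and 128 to 171 CPM of Gp6, which gives a common scale. Of the list's 30 genes, 24 had at least 100 CPM there. In CD45- cells under IgG 9.71% of the Kit- CD41+ level of F2rl2 was present and 10.8% of that of Gp6. A cut of 1% on this scale in CD45+ IgG cells picked out 10 of these 24 genes, those below it. Their group means in CD45- cells under IgG lay in a narrow band, from 9.02% to 12.1% with a median of 10.2%. Single libraries varied more. Gp6 had 2.77 CPM in CD45- IgG replicate 1 and 13.5 to 26.4 CPM in the other IgG libraries. Under anti-Dll4 the median of the 10 genes in CD45- cells was 4.12%. In CD45+ cells their median was 1.24% under anti-Dll4 and 0.323% under IgG. Because those 10 were picked by their low IgG level, the last pair of values is a description only. The other 14 genes had medians of 10.4% under anti-Dll4 and 7.21% under IgG in CD45+ cells, and of 9.09% and 12.7% in CD45- cells. Summed over the list, the level was 1339, 1681, 1744 and 1628 CPM under anti-Dll4 and 930, 1444, 1305 and 1256 CPM under IgG in CD45+ cells. In CD45- cells it was 2579, 1367, 1616 and 1806 CPM under anti-Dll4 and 1802, 4698, 3956 and 5747 CPM under IgG. Whether admixed Kit- CD41+ cells or platelets had a part in the result was not tested.

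**Figure D3:**
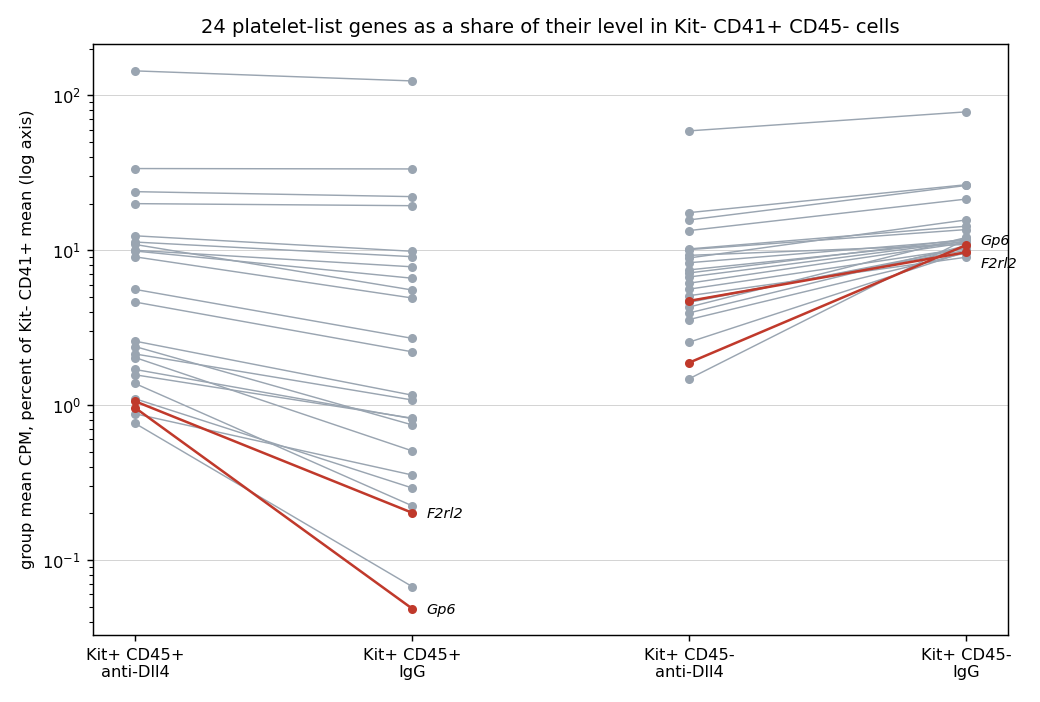
Mean CPM of 24 megakaryocyte and platelet genes in the 4 Kit+ groups as a percent of their mean in Kit- CD41+ CD45- cells (log axis); each line joins the anti-Dll4 and IgG means of 1 gene in 1 population. F2rl2 stands at 1.06% and 0.202% in Kit+ CD45+ cells and at 4.71% and 9.71% in Kit+ CD45- cells, under anti-Dll4 and IgG.

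The list's pattern held without the IgG libraries that stood apart. Without CD45- IgG replicate 1, 29 of 30 members had a positive difference and the median was 1.74, and 14 genes passed the threshold, 8 of them in the list. Without CD45+ IgG replicate 1 the figures were 30 of 30, 1.43, and 2 genes, 1 of them in the list. Without both, 29 of 30 members were positive with a median of 1.61, and 11 genes passed, 6 of them in the list. With the globin share as a covariate 29 of 30 were positive with a median of 1.81. Here and below that covariate was the log2 globin share within the CD45- libraries and was constant in all others. It thus adjusted the effect in CD45- cells only, and the list's median effect in CD45+ cells stayed at 0.82. Limma-voom gave 27 of 30 positive members with a median of 1.27. The edgeR fit of the 16 Kit+ libraries alone gave 30 of 30 with a median of 1.48. In both of these fits 18 members had an unadjusted p below 0.05 and 0 passed the threshold.

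Outside the list, the genes nearest the threshold with a higher effect in CD45+ cells included further platelet genes. Ly6g6f, the gene of a platelet surface protein of the Ly6 cluster, had 69 counts in all under anti-Dll4 and 3 under IgG in CD45+ cells. That is a ratio of 24.4 with a counting interval of 8.01 to 121. The anti-Dll4 libraries held 0, 34, 14 and 21 of these counts and the IgG libraries 0, 2, 0 and 1. The groups thus overlapped, and the interval leaves out this spread between libraries. The CD45- cells had 8.06, 8.19, 2.60 and 9.62 CPM under anti-Dll4 and 4.80, 21.3, 20.0 and 21.8 CPM under IgG. Its difference did not pass (adjusted p = 0.086 by edgeR). Cd226, an adhesion receptor of platelets, T cells and natural killer cells, had 120 counts under anti-Dll4 and 0 under IgG in CD45+ cells. Against the floor of 3 counts in each IgG library that is at least 10.8-fold higher. Nearly all of the 120 counts came from 2 libraries with 40 and 78, and the difference did not pass (adjusted p = 0.18).

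Actn1, Slc25a20 and Actc1 were also among them. Actn1, an actin cross-linking protein abundant in platelets, had 17.5, 20.4, 21.2 and 15.4 CPM under anti-Dll4 and 15.3, 15.97, 14.8 and 14.3 CPM under IgG in CD45+ cells. Its level in CD45- cells was 16.8, 13.6, 14.99 and 13.3 CPM under anti-Dll4, all below the 22.7, 18.6, 25.7 and 25.2 CPM under IgG. The difference was 0.95 (SE 0.18, adjusted p = 0.086 by edgeR). Slc25a20, the mitochondrial carnitine carrier, differed by 0.99 (SE 0.22, adjusted p = 0.197), and its anti-Dll4 libraries were again all below the IgG libraries in CD45- cells. Actc1, a heart muscle actin, had 36.8, 8.91, 11.7 and 36.0 CPM under anti-Dll4, all above the 4.26, 4.01, 2.97 and 6.01 CPM under IgG in CD45+ cells. Its difference of 5.25 (adjusted p = 0.208) also drew on CD45- IgG replicates 2 and 3, with 217.5 and 72.0 CPM against 7.84 and 6.29 CPM in the other IgG libraries.

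In the direction of a lower effect in CD45+ cells no gene passed, and the 10 with the smallest p are described without a call. Cacna2d3, a calcium channel subunit, had 0 counts in all 4 anti-Dll4 libraries of CD45+ cells and 25 in the IgG libraries, at least 1.84-fold lower against the floor. CD45- libraries had 12.7, 20.7, 10.6 and 15.5 CPM under anti-Dll4 and 6.09, 13.7, 9.53 and 10.7 CPM under IgG. Its adjusted p was 0.086 by edgeR. Adra2b, an alpha-2 adrenergic receptor, likewise had 0 counts under anti-Dll4 and 17 under IgG in CD45+ cells, at least 1.27-fold lower, with an adjusted p of 0.313.

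The other genes of that direction had higher counts and smaller differences. Nsun5, an RNA methyltransferase of the ribosome, had 30.2, 35.4, 35.0 and 33.8 CPM under anti-Dll4, all below the 49.4, 38.7, 37.9 and 54.9 CPM under IgG in CD45+ cells. For CD45- cells the values were 50.7, 58.2, 58.8 and 62.1 CPM under anti-Dll4 and 42.3, 47.4, 37.4 and 54.3 CPM under IgG. Its difference was -0.77 (SE 0.20, adjusted p = 0.361 by edgeR). Slc11a2 encodes DMT1, the iron importer of red cell precursors. It had 10.2, 10.8, 9.63 and 11.02 CPM under anti-Dll4 and 13.4, 20.7, 13.5 and 14.9 CPM under IgG in CD45+ cells, again without overlap. Its difference was -1.13 (adjusted p = 0.533), and in CD45- cells it had 29.7, 36.5, 34.2 and 37.2 CPM under anti-Dll4 and 14.3, 32.3, 23.1 and 24.7 CPM under IgG. Coq10a, Hspbap1, Hspb6, Pard6b, Polh and Arhgap4 had differences of -1.09, -1.11, -1.48, -2.92, -1.59 and -2.05, with adjusted p between 0.518 and 0.629.

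The Notch genes bear on whether the response of the antibody's own pathway differed between the 2 populations. Hes1, the most widely used readout of Notch signalling, had 43.8, 51.4, 46.0 and 55.1 CPM under anti-Dll4 and 98.4, 62.7, 90.6 and 74.1 CPM under IgG in CD45+ cells. Among CD45- cells it stood at 32.0, 30.7, 26.2 and 27.8 CPM under anti-Dll4 and 79.9, 45.4, 83.8 and 45.9 CPM under IgG. Every anti-Dll4 library was below every IgG library in both populations. The log2 fold changes were -0.73 (SE 0.29, unadjusted p = 0.0195) in CD45+ cells and -1.13 (unadjusted p = 0.000941) in CD45- cells, and neither passed after adjustment in edgeR (adjusted p = 1 and 0.195). The difference was 0.40 (SE 0.41, 95% interval -0.46 to 1.26), so effects that are equal and effects that differ up to about 1.26 on the log2 scale both lie in the interval.

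Hey1, a repressor induced by Notch in arterial endothelium, had 21.9, 25.6, 38.7 and 51.2 CPM under anti-Dll4 and 29.2, 64.7, 65.1 and 59.2 CPM under IgG in CD45+ cells. In CD45- cells it had 36.1, 15.9, 27.4 and 14.2 CPM under anti-Dll4 and 30.9, 29.8, 42.4 and 53.4 CPM under IgG. The groups overlapped in both populations. The difference was 0.07 (95% interval -1.18 to 1.32), and its sign changed with the globin covariate and on leaving out single libraries. Efnb2, the arterial ephrin and a Notch target, gave another picture. It had 12.2, 10.8, 12.4 and 8.14 CPM under anti-Dll4 and 10.9, 10.52, 12.5 and 8.96 CPM under IgG in CD45+ cells. The CD45- cells had 11.6, 3.65, 8.40 and 5.47 CPM under anti-Dll4, all below the 29.5, 12.03, 13.8 and 12.8 CPM under IgG. The difference of 1.24 (SE 0.48, 95% interval 0.26 to 2.22, unadjusted p = 0.0155) did not pass after adjustment (0.789, edgeR). Hes7, a Hes gene best known from the somite clock, differed by 1.81 (adjusted p = 0.72) at levels below 4 CPM.

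**Figure D4:**
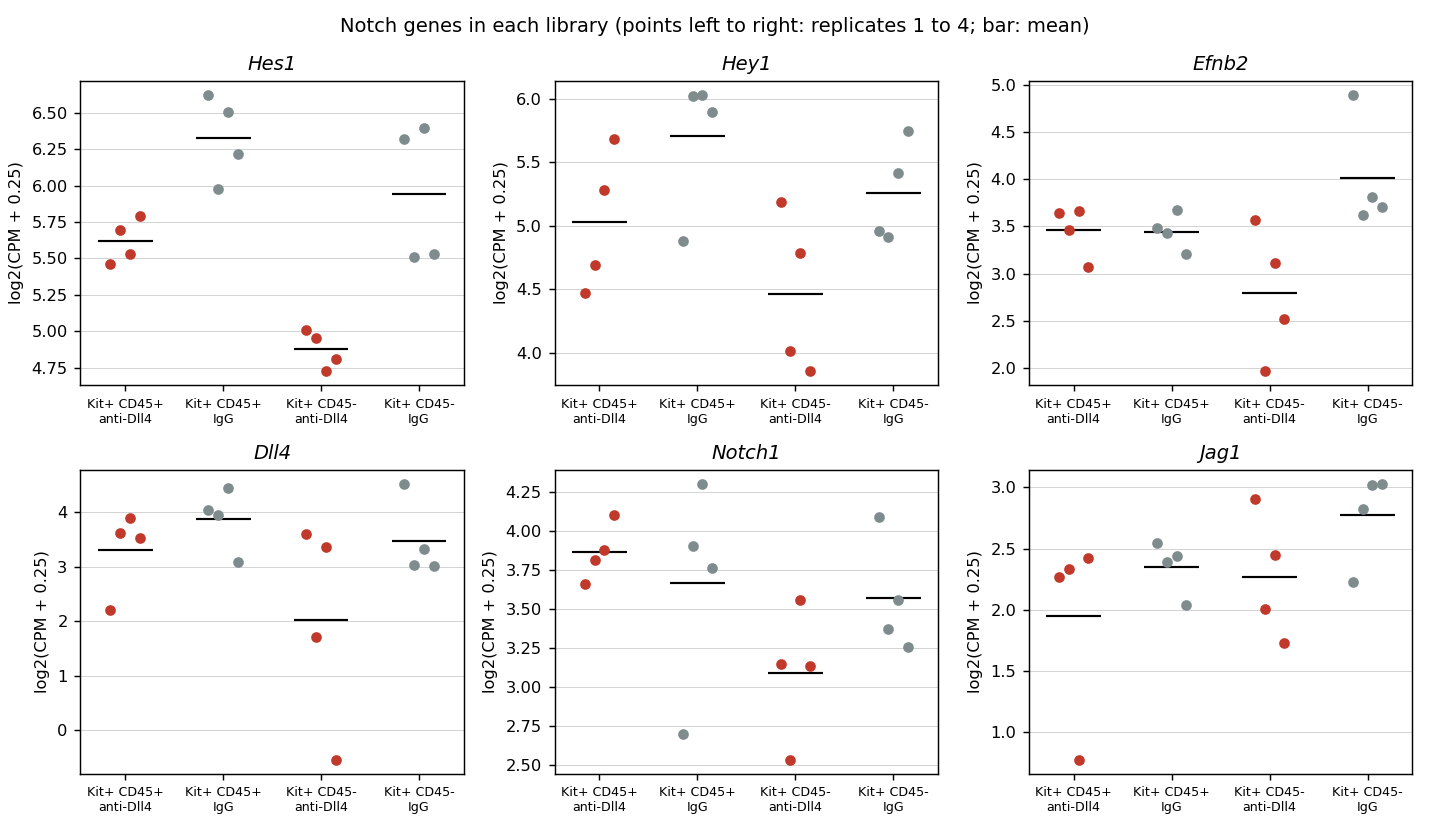
Levels of 6 Notch genes as log2(CPM + 0.25) in each Kit+ library, anti-Dll4 in red and IgG in grey, with the group mean as a bar. Hes1 lies lower in all anti-Dll4 libraries than in all IgG libraries of both populations, while Efnb2 does so in Kit+ CD45- cells and overlaps in Kit+ CD45+ cells.

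The ligand itself had 4.38, 12.1, 14.7 and 11.3 CPM under anti-Dll4 and 16.3, 15.3, 21.6 and 8.25 CPM under IgG in CD45+ cells. In CD45- cells Dll4 had 11.9, 3.02, 10.1 and 0.437 CPM under anti-Dll4 and 22.9, 7.93, 9.75 and 7.80 CPM under IgG. An antibody acts on the protein, so this transcript does not check the labels. Its difference was 0.37 (95% interval -1.44 to 2.18), with the opposite sign under the globin covariate. The receptor Notch1 differed by 0.58 (interval -0.37 to 1.53), the ligand Jag1 by 0.18 (interval -0.96 to 1.32) and the endothelial receptor Notch4 by 1.09 (interval 0.05 to 2.13, adjusted p = 0.834 by edgeR). Poglut1, an enzyme that glycosylates Notch receptors, differed by 0.85 (adjusted p = 0.72), with 19.7, 15.1, 29.0 and 16.4 CPM under anti-Dll4 and 53.1, 31.2, 27.1 and 34.4 CPM under IgG in CD45- cells, where the groups overlapped by 1 library. Of 28 Notch receptors, ligands and machinery genes 21 had a positive difference, with a median of 0.27, and of 18 Notch target genes 14 did, with a median of 0.38. In each of these lists 0 passed and 3 had an unadjusted p below 0.05, 10.7% and 16.7% against 4.23% of all genes. In CD45- cells 23 of the 28 and 14 of the 18 had an estimate below 0, against 8334 of the 15618 genes tested. Without CD45- IgG replicate 1 the medians were 0.09 with 18 of 28 positive and 0.22 with 13 of 18 positive, and with the globin covariate they were 0.08 and 0.26.

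Most endothelial genes had estimates below 0 in CD45- cells. Of 30 pan-endothelial genes 28 had a positive difference, none passed, and 5 had an unadjusted p below 0.05, 16.7% against 4.23% of all genes. The median difference was 0.73, from a median effect of -0.05 in CD45+ cells and -0.78 in CD45- cells. In the latter 29 of 30 estimates were below 0, against 8334 of the 15618 genes tested. Fli1, a transcription factor of endothelium and megakaryocytes, had 62.5, 67.3, 74.2 and 80.5 CPM under anti-Dll4 and 68.5, 59.8, 67.6 and 60.1 CPM under IgG in CD45+ cells. Its level in CD45- cells was 40.3, 21.0, 42.2 and 24.1 CPM under anti-Dll4 and 72.0, 30.9, 53.7 and 63.6 CPM under IgG. Its difference was 0.94 (SE 0.30, adjusted p = 0.567 by edgeR).

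Esam, a junctional adhesion protein, had 85.4, 92.3, 78.6 and 39.8 CPM under anti-Dll4, all below the 243, 103, 105 and 116 CPM under IgG in CD45- cells, and differed by 0.97 (adjusted p = 0.831). The junction gene Cdh5 had 22.5, 13.6, 13.3 and 15.5 CPM under anti-Dll4 and 46.9, 27.1, 25.1 and 25.2 CPM under IgG in CD45- cells, without overlap, and differed by 1.10 (interval -0.06 to 2.25). Pecam1, which encodes the sorting marker CD31, differed by 0.63 (interval -0.17 to 1.43). CD45- IgG replicate 1 weighed on these values. Its pan-endothelial sum was 4912 CPM, against 2240 to 2726 CPM in the other IgG libraries and 1183 to 2273 CPM under anti-Dll4. Without it the list's median difference was 0.43, with 26 of 30 positive and 2 members at an unadjusted p below 0.05, and with the globin covariate it was 0.39, again with 26 of 30 and 2 such members. In CD45+ cells the sums were 4089 to 5652 CPM under anti-Dll4 and 4157 to 5651 CPM under IgG.

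Arterial genes had a median difference of 0.54 with 17 of 21 positive, and venous and lymphatic genes one of 0.63 with 11 of 12 positive. Cxcr4, the receptor for the chemokine Cxcl12 and an arterial gene, differed by 1.52 (adjusted p = 0.757 by edgeR), and the venous receptor Ephb4 by 1.11 (adjusted p = 0.866). Adhesion and migration genes, a list that holds Itgb3 and Cxcr4 too, had a median of 0.56 with 23 of 27 positive. Another of its members, Icam1, a leukocyte adhesion protein, differed by 1.401 (adjusted p = 0.831). TGF-beta and BMP genes had a median of 0.48 with 23 of 26 positive. Among these the feedback inhibitor Smad7 had 4.37, 2.90, 5.80 and 2.84 CPM under anti-Dll4 and 18.3, 4.78, 11.1 and 8.81 CPM under IgG in CD45- cells, overlapping by 1 library, and a difference of 1.39 (adjusted p = 0.73). The receptor Tgfbr2 had 6.42, 7.31, 5.80 and 8.09 CPM under anti-Dll4, all below the 25.8, 8.89, 13.9 and 14.1 CPM under IgG in CD45- cells, and a difference of 1.18 (adjusted p = 0.788). None of these 4 lists held a gene past the threshold. Without CD45- IgG replicate 1 the medians were 0.34 for the arterial, 0.41 for the venous and lymphatic, 0.37 for the adhesion and 0.27 for the TGF-beta and BMP list. With the globin covariate they were 0.24, 0.37, 0.34 and 0.28 in that order.

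**Figure D5:**
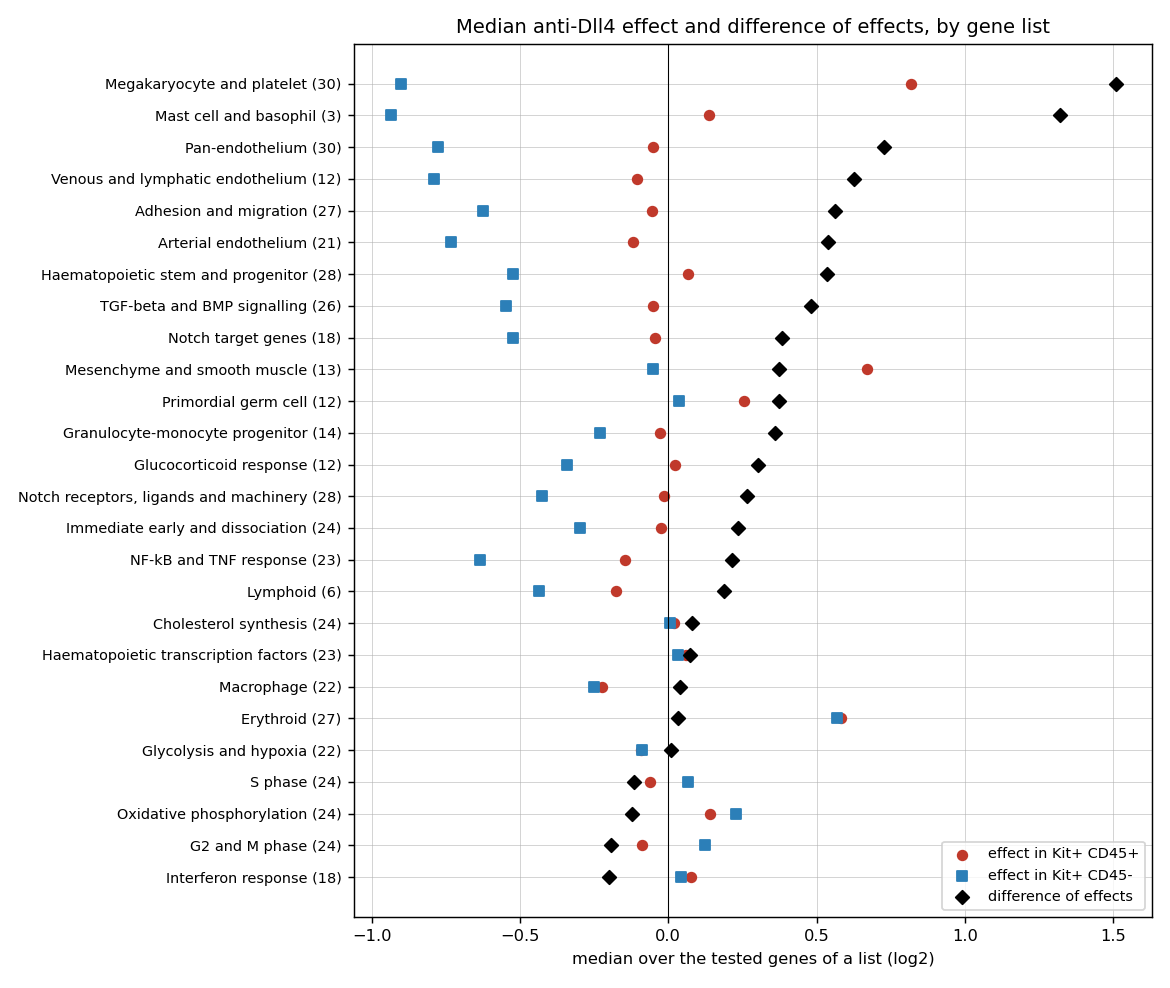
Median over the tested genes of each of 26 lists (number in brackets) of the log2 effect in Kit+ CD45+ cells (red circles), the effect in Kit+ CD45- cells (blue squares) and the difference of effects (black diamonds). The platelet list has the highest median difference, 1.51, and is the list with the highest median effect in Kit+ CD45+ cells, 0.82; the endothelial lists lie near 0 in Kit+ CD45+ cells and between -0.73 and -0.79 in Kit+ CD45- cells.

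Of 23 transcription factors of the blood programme tested, 13 had a positive difference, none passed and the median was 0.07. The 2 with an unadjusted p below 0.05, 8.7% of the list against 4.23% of all genes, were Fli1 and Hhex, a homeobox gene of blood and endothelial precursors, with 0.68 (unadjusted p = 0.0397 by edgeR). Without CD45+ IgG replicate 1 the median was 0.23, and without replicate 1 of every group it was 0.28, with 16 of 24 positive in both. Runx1, required for the emergence of blood cells from endothelium, had 95.8, 98.3, 113.5 and 111 CPM under anti-Dll4 and 116, 54.5, 84.0 and 96.6 CPM under IgG in CD45+ cells. CD45- libraries had 38.5, 22.5, 37.4 and 41.3 CPM under anti-Dll4 and 19.7, 35.0, 41.8 and 56.3 CPM under IgG, and the difference was 0.38 (interval -0.31 to 1.07). Gata2, a factor of hematopoietic stem cells, differed by 0.57 (interval -0.28 to 1.43), and Kit by 0.24 (interval -0.54 to 1.03). The stem and progenitor list had a median of 0.54 with 23 of 28 positive, or 0.43 with the genes of a group without counts set to their bound. It was 0.30 without CD45- IgG replicate 1 and 0.19 with the globin covariate. Slamf1, which encodes CD150, a stem cell and megakaryocyte surface protein, had a difference of 4.60 (adjusted p = 0.567 by edgeR) at levels of at most 4.65 CPM in CD45+ cells.

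No red cell gene passed the test of the difference. Of 27 tested, 14 had a positive and 13 a negative difference, with a median of 0.03. The median effect was 0.58 in CD45+ cells and 0.57 in CD45- cells. In CD45- cells 0 of the 27 had an estimate below 0, against 8334 of the 15618 genes tested. Of the 27, 6 had an estimate below 0 in CD45+ cells and above 0 in CD45- cells, against 3105 of all genes tested. Without CD45+ IgG replicate 1 the median effect in CD45+ cells was 0.27 and the median difference -0.16, with 10 of 27 positive, and without CD45- IgG replicate 1 the median difference was 0.27. The summed level was 638 to 842 CPM under anti-Dll4 and 528 to 707 CPM under IgG in CD45+ cells. In CD45- cells it was 222000 to 963100 CPM under anti-Dll4 and 158900 to 446600 CPM under IgG. With the globin covariate the median difference of the list was 0.56. Hbb-y, an embryonic globin, had 12.95, 56.9, 14.97 and 22.0 CPM under anti-Dll4 and 114.6, 34.0, 55.3 and 35.7 CPM under IgG in CD45+ cells, and a difference of -1.91 (adjusted p = 0.72 by edgeR). The membrane skeleton gene Sptb had 26 counts under anti-Dll4 and 2 under IgG in CD45+ cells, a ratio of 13.8 with a counting interval of 3.45 to 120. The anti-Dll4 libraries held 3, 0, 6 and 17 of these counts, a spread that the interval leaves out. The difference of Sptb did not pass (adjusted p = 0.831 by edgeR).

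White cell transcripts were low in CD45- libraries. The macrophage sum was 2037 to 4024 CPM under anti-Dll4 and 615 to 4997 CPM under IgG in CD45+ cells. In CD45- cells it was 47.1 to 97.3 CPM under anti-Dll4 and 73.8 to 139 CPM under IgG, with 6 to 12 of 22 members at 0 in a library. All 22 genes were tested, and 11 had a positive difference, with a median of 0.04, or -0.31 without CD45+ IgG replicate 1. Csf3r, the receptor for G-CSF, had 2 counts under anti-Dll4 and 47 under IgG in CD45- cells, a ratio of 0.05 with a counting interval of 0.00588 to 0.191. Of the 47 counts, 32 came from CD45- IgG replicate 1, and the other IgG libraries held 1, 5 and 9. The interval leaves out this spread between libraries. In CD45+ cells Csf3r had 5.68, 9.22, 18.0 and 7.16 CPM under anti-Dll4 and 7.78, 8.33, 8.68 and 10.7 CPM under IgG. Its difference did not pass (adjusted p = 0.546 by edgeR). The granulocyte-monocyte progenitor list had a median of 0.36 with 9 of 14 positive, the lymphoid list 0.19 with 4 of 6, and the mast cell and basophil list 1.32 with 3 of 3. Without CD45- IgG replicate 1 the first of these was -0.01 with 7 of 15 positive, and without replicate 1 of every group it was -0.31 with 5 of 15 positive. The mesenchymal list had a median of 0.37 with 9 of 13 positive and the primordial germ cell list one of 0.37 with 9 of 12. The mesenchymal median was 0.16 without CD45- IgG replicate 1 and 0.75 with the globin covariate. Without replicate 1 of every group the medians were 0.05 and, for the germ cell list, -0.11.

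Lists of proliferation and respiration had medians below 0. Of 24 genes of the G2 and M phases 22 had a negative difference with a median of -0.19, and of 24 S phase genes 17 did, with a median of -0.12. Ccna2, cyclin A2, had 249, 258, 258 and 236 CPM under anti-Dll4, all below the 259, 273, 264 and 272 CPM under IgG in CD45+ cells. For CD45- cells the values were 389, 456, 451 and 506 CPM under anti-Dll4 and 351, 420, 409 and 390 CPM under IgG, and its difference was -0.29 (SE 0.13, adjusted p = 0.834 by edgeR). Of 24 oxidative phosphorylation genes 22 were negative with a median of -0.12. With the globin covariate 15 of these 24 were positive with a median of 0.08, while the medians of the G2 and M phase and S phase lists were -0.13 and -0.17. None of these genes passed, and 1 of them, Ccna2, had a negative difference with an unadjusted p below 0.05, against 1.69% of all genes. The remaining lists had medians of 0.24 for immediate early and dissociation genes (22 of 24 positive), 0.30 for glucocorticoid response (10 of 12), 0.22 for NF-kB and TNF response (15 of 23), 0.08 for cholesterol synthesis (16 of 24), 0.01 for glycolysis and hypoxia (11 of 22) and -0.20 for interferon response (8 of 18). Without CD45- IgG replicate 1 the NF-kB and TNF median was 0.0067 with 12 of 23 positive, and the glucocorticoid and interferon medians were 0.18 and -0.07. Rsad2 and Isg15, antiviral genes of the interferon list, had differences of 1.91 and 2.34 against the list's median (adjusted p = 0.751 and 0.843 by edgeR). Isg15 reads were few, with 0 to 5 counts in a CD45+ library and 0 to 19 in a CD45- library. For Nfkbia, the inhibitor of NF-kB, the difference was 0.83 (adjusted p = 0.8293 by edgeR). The glucocorticoid-induced genes Ddit4 and Errfi1 differed by 1.29 and 1.08 (adjusted p = 0.839 for both). The median over all genes moved by less than 0.1 on the log2 scale with another scaling.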

How the data were processed

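The authors deposited unnormalized read counts for 29716 genes, which were used as they stand. Their deposited log2 table supplied gene names and positions; its values equal the log2 of counts divided by size factors, plus 1, to within 5.3e-14, and 1 further library column in it matched none of the samples. Per the submitters' processing notes the tools were CASAVA 1.4, FastQC, STAR, HTSeq and DESeq2, on build mm10. What each tool did, the use of strand and the annotation release are not in the sources used here.

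The counts were fitted with edgeR 4.0.16 (R 4.3.3): TMM scaling, the filterByExpr filter, 1 coefficient per group over all 24 libraries, 18 residual degrees of freedom and the quasi-likelihood F-test, with Benjamini-Hochberg adjustment over the 15618 genes tested and a threshold of 0.05. The SE comes from the fold change and its F statistic. Alternatives, among them limma-voom (limma 3.58.1) and DESeq2 1.42.0, are given in the closing section. The floor of 3 counts per library and the counting intervals cover counting error only, since amplified reads are not independent molecules.

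The comparison, the 26 gene lists and the genes named were chosen with earlier results of these data known. Named genes are those with at least 5 CPM in the highest Kit+ group: up to 15 with the smallest p in each direction, filled to 10 where fewer passed, a fixed set of marker and Notch genes, and the 2 members with the smallest p of each list; 1 gene that this rule names is not reported here. The 5 CPM minimum was applied to the genes chosen by p. Further platelet genes were named for their role after their values were seen.

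Replicate numbers and the sets of sorts they name were checked as pairs. Deviations from group means correlated between the Kit+ libraries of a set by -0.0637 to 0.197, and between libraries of the same number by -0.147 to 0.0999. Pairs of a CD45+ and a CD45- library from different sets, under the same antibody, correlated by -0.232 to 0.167. Not every same-set pair was above 0.1, and by that rule the fit treats libraries as independent. The rule is a choice and does not show that they are. These correlations cannot tell whether the sorts of a set shared embryos. With the sets as a block F2rl2 passed (adjusted p = 0.0225 by edgeR) and Gp6 did not. Whether the sorts of a set share embryos is not stated in the sources used here. However, all 3 libraries of set 2, anti-Dll4 replicate 1, held Ddx3y reads (1244, 523 and 952 counts), against at most 15 elsewhere. Their Xist counts were 1, 5 and 1, against 1455 to 2705 elsewhere. In these genes the sorts of that set were alike, and the fit without a block takes them as independent.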

Additional observations from a re-analysis of the deposited data

Results flagged for a closer look

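The difference of the anti-Dll4 effects between Kit+ CD45+ and Kit+ CD45- cells passed its own test for F2rl2 (log2 3.45) and Gp6 (log2 6.65), by edgeR's quasi-likelihood test on the contrast.

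In 96 groups of 4 libraries, 8 held a library far from the other 3. The cut flags about 1 in 20 groups where values are normal, but these were CPM, some of them near 0. The groups also reuse the same 16 libraries, so that rate cannot be set against the 8. Kit+ CD45+ IgG replicate 1 was low for F2rl2, with 1.397 CPM against 7.12 to 8.22 CPM in the other libraries, and for Hey1, with 29.2 CPM against 59.2 to 65.1 CPM. It was high for Hey2, another Notch-induced repressor, with 2.73 CPM against 0.151 to 0.179 CPM. For Gp6 the library apart was Kit+ CD45+ IgG replicate 3, with 0.305 CPM against 0 CPM in the others. Kit+ CD45- IgG replicate 1 was high for the endothelial genes Efnb2 (29.5 CPM against 12.03 to 13.8 CPM), Cdh5 (46.9 CPM against 25.1 to 27.1 CPM) and Dll4 (22.9 CPM against 7.80 to 9.75 CPM). Jag1 was low in Kit+ CD45+ anti-Dll4 replicate 3, with 1.46 CPM against 4.56 to 5.12 CPM. Of the 8, 6 lay in the IgG libraries of replicate 1.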

How the results depend on the processing

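The fit as reported gave 2 genes for the difference of effects, 1 for CD45+ cells alone and 0 for CD45- cells alone. For the difference the count was 0 without a filter on low counts, with the 16 Kit+ libraries or with limma-voom. It was 1 with a replicate block by set, 8 with the globin share of the CD45- libraries as a covariate and 32 with DESeq2. Dropping replicate 1 of every group gave 29, and dropping replicate 2, 3 or 4 of every group gave 0. It was 14 without the anti-Dll4 libraries of replicate 1, 11 without the IgG libraries of replicate 1 (chosen after seeing the data), and 1 to 14 without single libraries, the highest being that without Kit+ CD45- IgG replicate 1.

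For CD45+ cells the count was 0 in a test against a fold of 1.5, without the filter, with the 16 libraries, with limma-voom and without replicate 2, 3 or 4 of every group, 14 with DESeq2, and 0 to 1 without single libraries. For CD45- cells it was 12 with the globin covariate, 82 with DESeq2, 67 without replicate 1 of every group, 26 without the anti-Dll4 and 24 without the IgG libraries of replicate 1, and 0 to 23 without single libraries. Median-ratio and upper-quartile scaling, leaving out the globin genes, and a replicate block by number kept all 3 counts. The block by set allows a fit of the difference only, and the numbers were not taken to pair the samples.

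Genes whose difference changed sign had unadjusted p above 0.05 as reported. Without replicate 2 of every group Hdc came to -0.23 and Jag1 to -0.02, without replicate 3 Ptprc came to -0.17, and without replicate 4 Kit came to -0.14, Dll4 to -0.072, Jag1 to -0.30 and Hey1 to -0.51. With the globin covariate Dll4 came to -0.28 and Hey1 to -0.023. Without the IgG libraries of replicate 1 Dll4 came to -0.12, Hey1 to -0.042 and Hey2 to 1.45. Hey2 came to 0.55 and 0.41 with the replicate block by number and by set, to 0.59 with limma-voom, to 3.66 without replicate 1 of every group and to 1.76 without the anti-Dll4 libraries of replicate 1. Without single libraries Dll4 ranged from -0.14 to 0.82, Hey2 from -1.93 to 1.82 and Hey1 from -0.19 to 0.35. The causes were not tested.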
